A study of Mus musculus with 16 samples.

Results

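The 10 genes described here, Adgre1, Csf1r, Cd68, Mertk, Marco, Vsig4, Cd5l, Timd4, Clec4f and Spic, are textbook markers of tissue macrophages, the phagocytes that live in nearly every organ. They were picked by name from 21938 protein-coding genes of the mouse annotation, and no threshold on a measured value selected them. Open chromatin was mapped by ATAC-seq, an assay whose transposase cuts accessible DNA and leaves sequencing adapters there. The samples were spleen, liver, lung, brown adipose, white adipose, muscle, heart and kidney of male C57BL/6 mice bought at 12 weeks of age, which either ate chow freely (fed) or went without food for 24 h (fasting). All mice were of this wild-type strain, and no allele or agent other than the food withdrawal set the groups apart. Tissue powder of the 3 mice of a state was pooled, so each of the 16 libraries is 1 pool, a state was measured once in each tissue, and the same 3 mice gave the 8 tissues of their state. The fed and the fasting library served as the 2 libraries of a tissue, and every p-value below measures the spread between these libraries and not between animals.

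Macrophages of most organs depend on the CSF1 receptor, encoded by Csf1r, and on the transcription factor PU.1, which opens chromatin at myeloid genes. Resident macrophages also carry programs that differ between organs. Kupffer cells line the sinusoids of the liver and are known for Clec4f, Vsig4, Timd4, Cd5l and Marco, red pulp macrophages of the spleen clear old red blood cells and require the factor Spi-C, alveolar macrophages clear surfactant in the lung, and adipose tissue holds macrophages that take up lipid. In bulk tissue, fewer macrophages and less open chromatin in each macrophage cannot be told apart.

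A peak is a region where the authors' peak caller found more transposase cuts (tags) than the local background. Each library has its own peak list, ordered by the p-value of each peak. A rank here is the percentile of a peak's -log10 p within its own list, from 100 for the strongest peak to near 0 for the weakest, and 0 was entered where no peak was listed. The promoter value of a gene is the rank of its strongest peak with a summit within 3000 bp of any annotated start, and the locus value is that of its strongest peak anywhere in the gene body extended by 10000 bp on each side. An element is a stretch of overlapping windows, each reaching 150 bp to either side of a summit. Summits with q under 0.01 in any library were used, so an element can rest on 1 library. The rank does not need depth to be equal, but depth decides which weak peaks are seen. The background of the libraries, which is proportional to their depth, ran from 2.80 tags in fed liver to 12.8 tags in fed brown adipose (median 5.86), and each list held between 298996 and 299529 rows. Every row of 8 lists had q under 0.01, so the length of the list and not the statistic ended it. In fed brown adipose the weakest row still had a -log10 q of 5.26, against 0.65 in fasting brown adipose, and a weaker peak in the former was not listed. Markers of the labelled tissues were checked at their promoters. All 5 hepatocyte markers were higher in liver, where their mean rank was 87.3 to 89.5 against 17.1 to 52.0 in the other libraries, and the B cell markers had a mean rank of 91.0 to 92.0 in spleen against 13.8 to 80.8 elsewhere.

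Of the 10 genes, 9 had a promoter peak in at least 2 libraries. The strongest promoter peak of Adgre1, Csf1r, Cd5l, Timd4, Spic and Clec4f was in a spleen library (the plot of ranks by library shows every value). The share of all genes for which this holds was not computed. For Timd4 fasting spleen lay only just above fed liver, and fed spleen listed no peak. Of these 9 genes, 5 had a higher promoter rank in spleen than the mean of the other 7 tissues, namely Adgre1, Csf1r, Marco, Cd5l and Spic, and Mertk was lower. Among all 18883 genes tested in the same way (limma on ranks, Benjamini-Hochberg adjusted p under 0.05), 14.4% were higher and 17.3% lower in spleen. The median difference over the 9 genes was 31.4 points of rank, and over all genes 0.078 points. Vsig4 had no promoter peak in any library. Spic and Clec4f were tested only because both spleen libraries listed a peak, so for them a difference towards spleen was set by that filter, and the count over the 9 genes is a description. Of the 7 genes with a promoter peak in at least 2 libraries of other tissues, 4 were higher in spleen (Adgre1, Csf1r, Marco and Cd5l), as were 13.8% of all genes under that filter. With the whole locus, all 10 genes could be tested, 7 were higher in spleen (Adgre1, Csf1r, Marco, Vsig4, Cd5l, Spic and Clec4f) and Mertk was lower, where 14.8% and 15.7% of 20268 genes were higher and lower. All 10 had a locus peak in at least 2 libraries of other tissues, and of all genes that had one 14.6% were higher in spleen. For Vsig4 and Spic the peaks behind the spleen locus values lay nearest to the starts of F630028O10Rik and Gm48108.

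**Figure D1:**
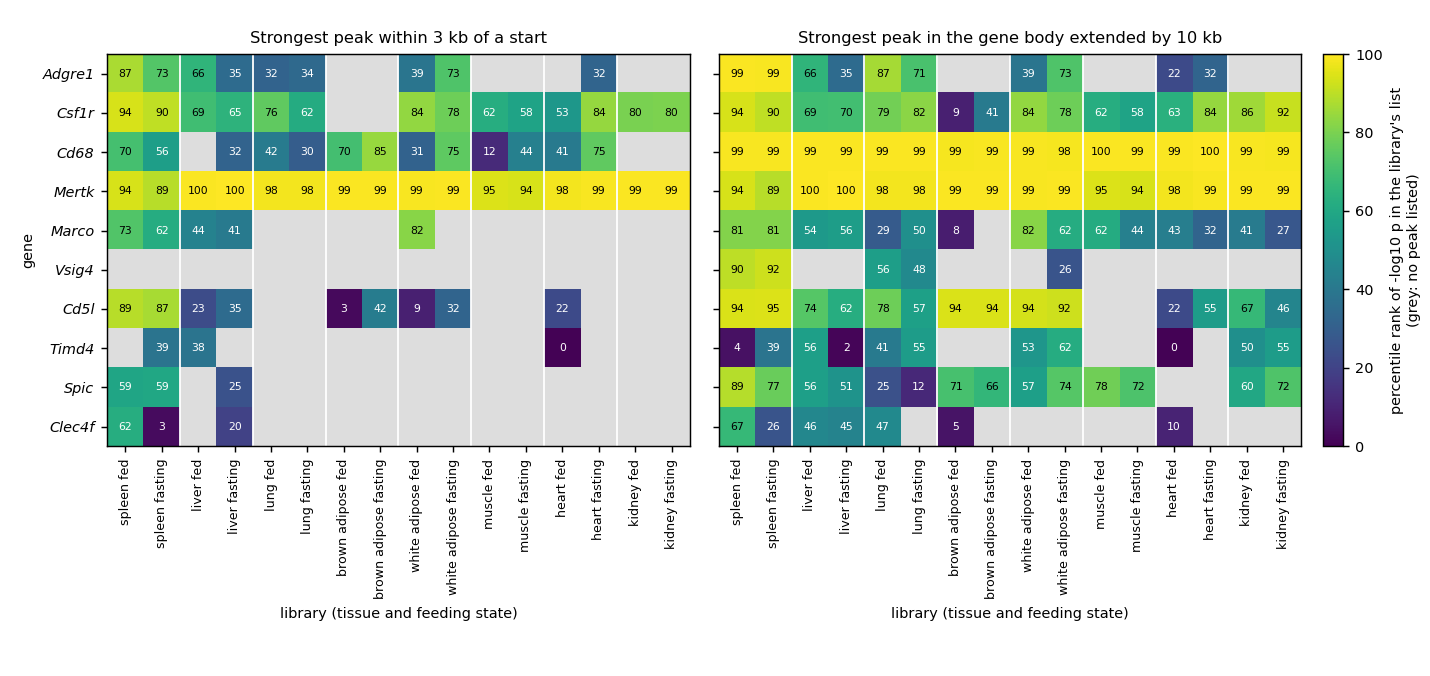
Percentile rank of the strongest peak of each gene (rows) in each of the 16 libraries (columns), within 3000 bp of a start (left) and in the gene body extended by 10000 bp (right). Colour and printed number give the rank and grey means that no peak was listed. The spleen columns hold the highest values of Adgre1, Csf1r, Cd5l and Spic at the promoter, while Mertk ranks at 89.2 or above in all 16 libraries.

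Csf1r (ENSMUSG00000024621.16, chr18:61100598-61132149, plus strand, GRCm38) encodes the receptor for CSF1 and IL-34, on which most tissue macrophages depend. Spleen had promoter ranks of 93.9 (fed) and 90.5 (fasting). Liver had 69.4 and 64.6, with 75.6 and 61.6 in lung, 83.6 and 78.1 in white adipose, 62.3 and 58.0 in muscle, 52.9 and 84.3 in heart, 79.8 and 80.3 in kidney. In both brown adipose libraries no promoter peak was listed. Both spleen libraries thus lay above all 14 others, with a mean of 92.2 against 60.8 and a difference of 31.4 ± 6.83 points (SE, limma, adjusted p = 0.0104). Brown adipose was lower than the other tissues by limma as well (difference -73.9 ± 6.83 points, adjusted p = 0.000397). The strongest peak was the same intronic element in all 14 libraries that had one, chr18:61107612-61109108, with its summit 2614 to 2843 bp downstream of an inner start. It carried 90 tags against 9.2 expected in fed spleen and 136 against 23 in fed kidney. With a window of 1000 bp, which leaves this element out, the spleen difference was 15.2 points (limma, adjusted p = 0.434) and that of brown adipose -17.4 points (adjusted p = 0.436).

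Around Csf1r, 23 of 33 elements were listed in at least 2 libraries and could be tested, and the tissues used different ones. An intronic element at chr18:61113202-61113574 was listed in spleen alone, with ranks of 83.2 fed and 79.0 fasting. A second at chr18:61109992-61110879, which covers a coding exon, ranked 83.7 and 91.6 in kidney, 52.4 and 69.7 in liver and was listed nowhere else (kidney difference 78.9 ± 3.39 points, adjusted p = 3.07e-07). The element 4066 bp upstream, chr18:61095895-61097032, ranked 78.6 and 82.5 in lung and 85.7 and 87.6 in kidney, with 30.3 in fasting spleen and 17.7 in fed heart. Farther out, 9704 bp upstream, chr18:61090297-61091102 ranked 85.1 and 83.7 in spleen and at most 49.99 in the 8 other libraries that listed it (71.1 ± 4.88 points, adjusted p = 9.8e-06). In all, 6 elements at Csf1r were higher in spleen and 8 in kidney. Kidney thus had several accessible elements at this gene, at locus ranks of 85.7 and 91.6, close to those of spleen (93.9 and 90.5). Some were shared with liver or lung, and only 1 was listed in both kidney libraries and nowhere else.

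**Figure D2:**
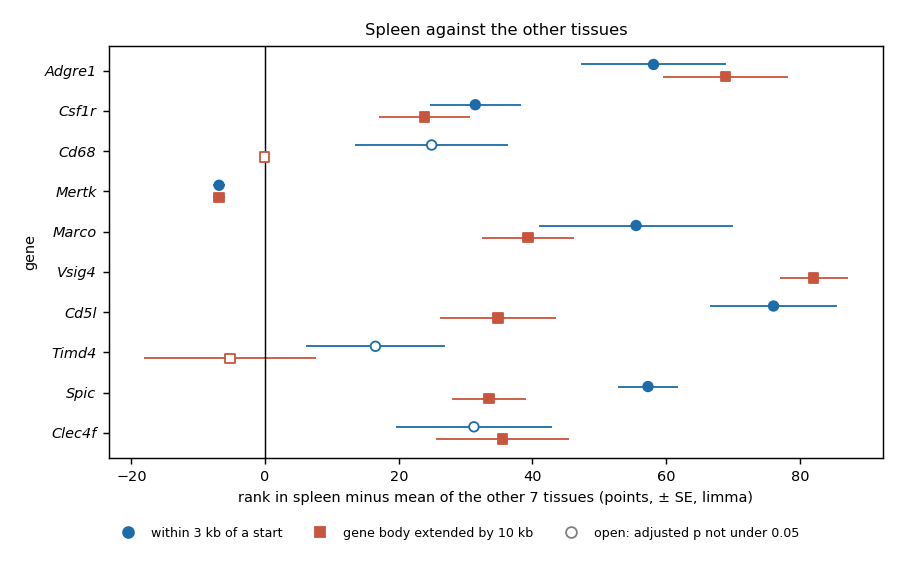
Difference in rank between spleen and the mean of the other 7 tissues (points, with the SE from limma) for each gene, within 3000 bp of a start (circles) and over the extended gene body (squares). Filled symbols had an adjusted p under 0.05, and the 5 filled circles to the right of 0 are Adgre1, Csf1r, Marco, Cd5l and Spic, of which Spic was tested only through its spleen peaks.

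Adgre1 (ENSMUSG00000004730.15, chr17:57358691-57483527, plus strand) encodes F4/80, the adhesion receptor that is the classical surface marker of mouse macrophages. Spleen had promoter ranks of 87.1 (fed) and 73.4 (fasting). Liver had 65.6 and 35.0, lung 32.0 and 34.0, white adipose 39.0 and 72.6, fasting heart 32.1, and no peak was listed in the other libraries. The spleen libraries were the 2 highest, although fasting spleen lay only just above fasting white adipose, and the mean of 80.3 against 22.2 gave a difference of 58.1 ± 10.9 points (SE, limma, adjusted p = 0.00544). At the strongest promoter peak of fed spleen, 1316 bp downstream of the start, 42 tags stood against 4.0 expected, an 8.56-fold enrichment as deposited. Over the locus, the strongest peak was not at the start but 9440 bp upstream. This intergenic element, chr17:57348788-57349409, ranked 99.3 and 99.1 in spleen and 86.6 and 71.2 in lung, and it was listed in no library of the other 6 tissues. It held 191 tags against 11.3 expected in fed spleen, 110 against 12.6 in fed lung, and its rank was higher in spleen by 87.9 ± 2.97 points (SE, limma, adjusted p = 1.09e-07). With it, Adgre1 was higher over the locus in spleen (68.9 ± 9.40 points, adjusted p = 0.00149) and in lung (45.7 ± 9.40 points, adjusted p = 0.0301), and lower in brown adipose, muscle and kidney, whose libraries listed no peak. In the gene body without the 10000 bp on each side, which leaves the upstream element out, the lung difference was 6.01 points (limma, adjusted p = 0.785). Elements 5234 and 786 bp upstream were listed in spleen alone, at ranks of 73.3 and 74.0 and of 47.7 and 64.99.

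The next lines give the 300 bases of GRCm38 around the summit of the upstream element, the strongest Adgre1 peak in spleen and lung, and of the intronic element 1316 bp downstream of the start. Both are on the plus strand and written in lower case. Capitals mark a match on either strand to GAGGAAGT, a sequence that PU.1 and Spi-C can bind, and the upstream element has none.
Adgre1 upstream element (chr17:57349101-57349400): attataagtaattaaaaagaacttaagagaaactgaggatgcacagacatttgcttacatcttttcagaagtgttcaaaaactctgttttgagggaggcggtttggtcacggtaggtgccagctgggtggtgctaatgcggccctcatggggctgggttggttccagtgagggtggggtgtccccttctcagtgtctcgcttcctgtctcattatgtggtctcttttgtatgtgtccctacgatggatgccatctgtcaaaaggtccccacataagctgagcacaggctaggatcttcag
Adgre1 intronic element (chr17:57359880-57360179): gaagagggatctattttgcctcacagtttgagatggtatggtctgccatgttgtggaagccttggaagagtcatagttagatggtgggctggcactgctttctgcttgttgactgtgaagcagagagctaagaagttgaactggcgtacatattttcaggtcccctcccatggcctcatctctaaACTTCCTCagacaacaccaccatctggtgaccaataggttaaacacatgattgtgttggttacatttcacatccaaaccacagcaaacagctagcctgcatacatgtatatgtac

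Cd68 (ENSMUSG00000018774.13, chr11:69664213-69666153, minus strand) encodes a lysosomal glycoprotein used as a general macrophage marker. Its promoter value has to be read with its neighbours, because the gene lies in a dense cluster. Promoter ranks were 70.4 and 55.9 in spleen, 41.5 and 29.5 in lung, 31.4 and 75.1 in white adipose, 70.0 and 84.7 in the brown depot, 11.8 and 43.5 in muscle and 40.8 and 75.4 in heart. In liver they were 0 and 31.7, and kidney had none. The difference for spleen was 24.9 ± 11.5 points and did not pass the test (limma, adjusted p = 0.140). Brown adipose was higher (41.1 ± 11.5 points, adjusted p = 0.0464) and kidney lower (-47.3 ± 11.5 points, adjusted p = 0.0250). Both calls were lost under several of the alternatives tried. Yet the strongest peak lay at the Cd68 start itself only in spleen (9 and 138 bp away) and in fed lung (16 bp). In every other library with a peak it lay 2122 to 2994 bp away and nearest to the start of Mir1934. The element at the start, chr11:69665920-69666492, ranked 70.4 and 55.9 in spleen, 41.5 and 20.9 in lung and 6.16 and 23.5 in white adipose, and was not listed in the other 5 tissues (spleen difference 56.6 ± 5.76 points, adjusted p = 0.00011). Over the locus the rank was 98.5 to 99.8 in all 16 libraries, set by the start of Mpdu1 or, in fasting white adipose, of Eif4a1, so the locus value does not describe Cd68.

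Mertk (ENSMUSG00000014361.5, chr2:128698956-128802894, plus strand) encodes a receptor with which macrophages bind dying cells, and it is also made by other cell types. Its promoter was open in all 16 libraries, at ranks of 89.2 to 99.8. Spleen had the lowest values of a tissue, 93.9 and 89.2, and muscle the next lowest, 94.7 and 93.9. Both were lower than the mean of the other tissues (spleen -6.88 ± 0.922 points, adjusted p = 0.00113, and muscle -3.71 ± 0.922 points, adjusted p = 0.0277, limma). When the deposited fold was ranked in place of the p-value, neither passed (-1.35 points, adjusted p = 0.227, and -0.24 points, adjusted p = 0.836). The position of the strongest peak differed as well. It lay 79 to 102 bp from a start in liver, lung, brown and white adipose, heart and kidney, but 659 to 691 bp from it in spleen and muscle. The Mertk locus held 60 elements, 37 of them testable, and 13 were higher in kidney against 2 in spleen. The element 2346 bp upstream, chr2:128696459-128696760, ranked 72.6 and 65.5 in kidney and was listed in no other tissue, and the same held for an intronic element at chr2:128721344-128721888 (53.0 and 54.6). A further intronic element, chr2:128768862-128769465, ranked 82.7 and 80.1 in kidney and 18.7 in fasting white adipose. At the inner start of Mertk, in contrast, chr2:128771022-128772011 ranked 53.3 and 75.9 in spleen, 41.0 and 57.4 in white adipose and 55.2 in fasting heart (spleen 53.6 ± 9.85 points, adjusted p = 0.00288), and kidney had no peak there.

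Marco (ENSMUSG00000026390.7, chr1:120474538-120505024, minus strand) encodes a scavenger receptor that binds bacteria and particles, known from alveolar, marginal zone and Kupffer macrophages. Its promoter rank was 72.9 and 62.0 in spleen, 44.5 and 40.7 in liver and 82.3 in fed white adipose, and the other 11 libraries listed no peak. Fasting white adipose was among those 11, so the highest value of the gene came from a library whose partner had none. Spleen was higher (mean 67.5 against 11.96, 55.5 ± 14.5 points, limma, adjusted p = 0.0222). With only the 100000 strongest rows of each list the difference was 6.08 points (adjusted p = 0.608). Lung, whose alveolar macrophages are known to make Marco, listed no promoter peak in either state, which says only that none reached the list. Over the locus the spleen ranks were 81.5 and 81.4 (39.4 ± 6.85 points higher, adjusted p = 0.00452), white adipose was higher as well (82.3 and 61.8, 28.6 ± 6.85 points, adjusted p = 0.0451) and brown adipose lower (7.91 and 0). An intronic element 3056 bp downstream of the start, chr1:120501545-120501850, was listed in spleen alone at ranks of 81.5 and 79.0. A second, beyond the 3' end of the gene at chr1:120467335-120467844, ranked 73.1 and 81.4 in spleen, 14.2 in fed liver and 49.2 in fasting white adipose (72.7 ± 9.37 points, adjusted p = 0.000413). Its 300 bases around the summit are shown because a PU.1 match, in capitals, lies 14 bp from the summit.
Marco downstream element (chr1:120467370-120467669): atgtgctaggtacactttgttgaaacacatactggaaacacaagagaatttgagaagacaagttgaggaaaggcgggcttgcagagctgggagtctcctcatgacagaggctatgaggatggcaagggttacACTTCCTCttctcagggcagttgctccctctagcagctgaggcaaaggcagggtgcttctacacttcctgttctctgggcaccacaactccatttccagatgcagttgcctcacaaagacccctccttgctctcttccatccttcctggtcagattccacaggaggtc

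Cd5l (ENSMUSG00000015854.7, chr3:87357881-87371073, plus strand) encodes AIM, a protein secreted by macrophages of liver and spleen. Of the 10 genes it showed the largest promoter difference. The ranks were 89.1 and 86.8 in spleen, 23.4 and 35.0 in liver, 8.89 and 32.2 in white adipose, 2.63 and 41.9 in the brown depot and 22.4 in fed heart, and no peak was listed in lung, muscle or kidney. Both spleen libraries lay above all others (mean 87.9 against 11.9, 76.1 ± 9.44 points, limma, adjusted p = 0.000768), with 53 tags against 5.5 expected in the fed state. That peak lies 2748 bp inside the gene, and within 1000 bp of a start the difference was 13.6 points (limma, adjusted p = 0.199). Inside the gene, chr3:87361236-87361543 ranked 91.9 and 86.1 in spleen and 28.6 in fed lung, and its neighbour chr3:87361570-87361923 was listed in spleen alone (49.4 and 64.2). The strongest element in spleen was a further intronic one, chr3:87369103-87369582, at 94.2 and 94.8, where white adipose had 70.5 and 67.1 and 5 other libraries 12.04 to 38.4 (spleen 74.3 ± 11.2 points, adjusted p = 0.00101). Its bases follow, with the PU.1 match, 24 bp from the summit, in capitals.
Cd5l intronic element (chr3:87369268-87369567): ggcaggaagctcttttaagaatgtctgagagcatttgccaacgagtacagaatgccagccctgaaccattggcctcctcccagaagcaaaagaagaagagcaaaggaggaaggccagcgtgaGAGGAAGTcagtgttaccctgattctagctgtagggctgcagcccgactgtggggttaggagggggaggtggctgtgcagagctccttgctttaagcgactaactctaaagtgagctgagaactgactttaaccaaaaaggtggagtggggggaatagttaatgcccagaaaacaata

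Outside spleen the locus value of Cd5l mostly belonged to the adjacent Fcrl1, a receptor-like gene of B cells. White adipose had locus ranks of 93.7 and 92.2 and brown adipose 94.3 and 94.2, as high as the 94.2 and 94.8 of spleen, but the peak behind it, chr3:87377326-87378204, lies in an intron of Fcrl1 about 1 kb from its start. Spleen and brown adipose were both higher over the locus (34.9 ± 8.71 points, adjusted p = 0.0198, and 34.5 ± 8.71 points, adjusted p = 0.0329, limma) and muscle, with no peak, was lower. Between the 2 genes, 2129 bp from the Fcrl1 start, chr3:87374108-87374446 was listed in brown adipose alone, at 75.7 and 77.5.

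**Figure D3:**
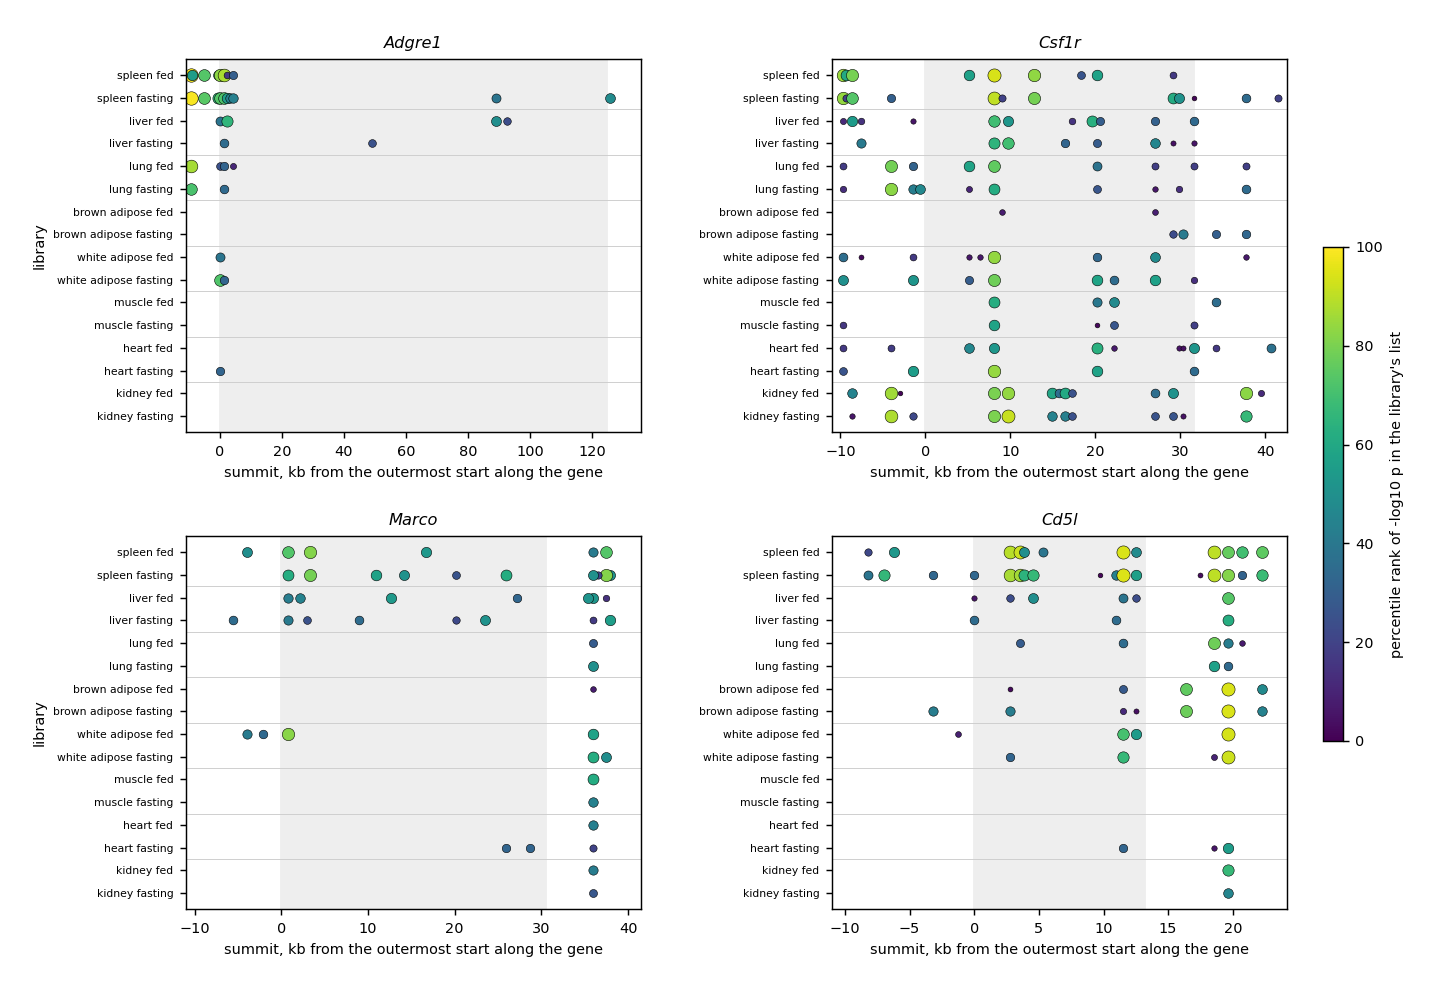
Listed peaks at Adgre1, Csf1r, Marco and Cd5l in each library (rows), placed by the distance of the element's summit from the outermost start along the gene in kb, with the gene body shaded. Colour and size give the percentile rank. The Adgre1 element upstream of the start appears only in the 2 spleen and 2 lung rows, and the Cd5l intronic elements are strongest in the spleen rows.

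Vsig4 (ENSMUSG00000044206.3, chrX:96247203-96293438, minus strand) encodes a complement receptor of Kupffer cells and other resident macrophages. No library had a peak within 3000 bp of its start, liver included. All that was listed near the gene lay beyond its 3' end, 48773 to 54244 bp from the start. The element chrX:96239581-96240190, 171 bp from a start of the noncoding gene F630028O10Rik, ranked 90.2 and 92.4 in spleen, 55.9 and 47.6 in lung and 26.0 in fasting white adipose. As the locus value of Vsig4 it made spleen higher by 82.0 ± 5.08 points (limma, adjusted p = 2.84e-05) and lung by 36.9 ± 5.08 points (adjusted p = 0.00640), with liver, brown adipose, muscle, heart and kidney lower at 0. With only the 100000 strongest rows of each list, the lung difference was -10.6 points (adjusted p = 0.00172). An element 1822 bp from Mir223, chrX:96244489-96245021, was listed in spleen alone (83.3 and 62.7), and so was chrX:96242559-96243078, which covers Mir223 itself (42.2 and 22.03). These signals are therefore nearer to Mir223, a microRNA gene known from neutrophils and other myeloid cells, than to the start of Vsig4. The mature microRNA that this spleen-only element spans is given next, from RefSeq on GRCm38.p6 (chrX:96242884-96242905, plus strand), with its seed, bases 2 to 8, in capitals.
mmu-miR-223-3p: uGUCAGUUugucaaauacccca

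Timd4 (ENSMUSG00000055546.6, chr11:46810800-46844332, plus strand) encodes a phosphatidylserine receptor that holds dying cells on long-lived resident macrophages. Promoter peaks were listed only in fasting spleen (38.6), fed liver (38.4) and fed heart (0.414), each with 12 or 14 tags, and no tissue had a peak in both states. No tissue contrast passed the test at the promoter or over the locus, and the spleen difference was 16.5 ± 10.4 points (limma, adjusted p = 0.271). The elements called higher were so in tissues other than spleen and liver. In spleen and in liver 2 elements each were lower, where 20.4% and 17.4% of all elements were. An intronic element, chr11:46830282-46830825, ranked 40.7 and 55.2 in lung and 36.8 and 61.8 in white adipose (lung 40.9 ± 4.90 points, adjusted p = 0.000432). Beyond the 3' end, chr11:46848287-46848636 ranked 52.6 and 61.8 in white adipose, 23.1 and 14.3 in kidney and 5.39 in fed lung (white adipose 54.2 ± 2.85 points, adjusted p = 5.59e-06). Nearby, chr11:46846555-46847040 was listed in kidney alone (49.99 and 55.1). It is shown because it carries the PU.1 letters, 2 bp from the summit, although neither spleen library listed it.
Timd4 downstream element (chr11:46846740-46847039): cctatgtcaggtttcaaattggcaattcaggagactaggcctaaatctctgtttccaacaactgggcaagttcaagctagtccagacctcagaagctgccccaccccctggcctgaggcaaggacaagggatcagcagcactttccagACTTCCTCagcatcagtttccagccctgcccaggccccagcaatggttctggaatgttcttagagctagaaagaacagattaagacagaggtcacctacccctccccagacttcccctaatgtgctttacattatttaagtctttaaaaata

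Clec4f (ENSMUSG00000014542.3, chr6:83644542-83656187, minus strand) encodes a C-type lectin that in mice marks Kupffer cells. Spleen had promoter ranks of 62.3 (fed) and 2.95 (fasting), fasting liver had 19.6, and the remaining 13 libraries listed no peak. The tags behind these peaks were few, 18, 12 and 11, and the spleen difference did not pass the test (31.2 ± 11.7 points, limma, adjusted p = 0.0785). Over the locus, liver had 46.3 and 44.9 and was higher (34.5 ± 9.91 points, adjusted p = 0.0297), and so was spleen with 67.0 and 26.1 (35.5 ± 9.91 points, adjusted p = 0.0298), while 47.4 in fed lung, 9.83 in fed heart and 5.36 in fed brown adipose were the only other values above 0. In liver, the strongest fed and fasting peaks lay in different elements, each listed in only that library. Of 19 elements, 17 were listed in a lone library. Among the other 2, chr6:83660261-83661115, 4585 bp upstream, ranked 67.0 and 26.1 in spleen, 45.5 and 25.3 in liver and 47.4 in fed lung, and chr6:83636283-83636675, 19596 bp downstream of the start, was listed in liver alone (42.5 and 38.5). The latter is the only element near the 10 genes to be listed in both liver libraries and nowhere else, and its 300 bases hold no PU.1 match.
Clec4f downstream element (chr6:83636375-83636674): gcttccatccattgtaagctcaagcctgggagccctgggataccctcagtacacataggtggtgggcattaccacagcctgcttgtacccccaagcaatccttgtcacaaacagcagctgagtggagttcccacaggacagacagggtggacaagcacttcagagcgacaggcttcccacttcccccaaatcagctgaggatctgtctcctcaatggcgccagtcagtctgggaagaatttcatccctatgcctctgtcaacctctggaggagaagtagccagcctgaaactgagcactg

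Spic (ENSMUSG00000004359.16, chr10:88674772-88685015, minus strand) encodes Spi-C, the PU.1-related factor that red pulp macrophages require. A promoter peak was listed in both spleen libraries, at 58.8 and 59.4, and in fasting liver at 25.3, and nowhere else. The 2 spleen libraries were close to each other, each with 16 or 17 tags, and their mean of 59.1 lay 57.3 points above the other tissues, a direction that the filter had fixed. An element 10034 bp downstream of the start, chr10:88672715-88673139, ranked 52.1 and 47.7 in spleen and 25.4 in fed muscle. The locus value came mostly from another element, chr10:88669756-88670300, nearest to the start of Gm48108 and listed in 13 libraries. There spleen had 89.0 and 77.1, muscle 78.4 and 72.2 and kidney 59.8 and 72.3, and heart no peak. Over the locus spleen (33.5 ± 5.56 points, adjusted p = 0.00365) and muscle (24.6 ± 5.56 points, adjusted p = 0.0187) were higher, lung (-40.6 ± 5.56 points, adjusted p = 0.00618) and heart (-61.5 ± 5.56 points, adjusted p = 0.000664) lower.

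In the other 7 tissues few of the genes stood out. At promoters, Cd68 in brown adipose was the only other gene that was higher in a tissue, and the lower ones were Csf1r in brown adipose, Mertk in muscle and Cd68 in kidney. Of all genes tested, 12.6% were higher in liver, 5.57% in lung, 5.70% in brown adipose, 5.81% in white adipose, 8.36% in muscle, 6.49% in heart and 9.88% in kidney, and 11.2%, 11.8% and 9.96% were lower in brown adipose, muscle and kidney. In the tissues with none of the 9 genes lower, 25.8% of all genes were lower in liver, 3.44% in lung, 4.08% in white adipose and 7.62% in heart. Liver, the home of Kupffer cells, thus had 0 of the 9 genes higher at promoters by limma, also 0 lower. The median difference of the 9 genes was 5.14 points in liver, 1.73 in white adipose, -6.06 in lung, brown adipose and heart alike and -10.3 in muscle and kidney alike, where that of all genes lay between -0.64 (liver) and 0.67 (lung).

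Over the locus, Clec4f in liver, Adgre1 and Vsig4 in lung (Vsig4 lower with the strongest rows only), Cd5l in brown adipose, Marco in white adipose and Spic in muscle were higher, and in heart and kidney none was. Of all genes, 16.2% were higher in liver, 2.81% in lung, 5.84% in brown adipose, 4.92% in white adipose, 8.32% in muscle, 5.23% in heart and 9.71% in kidney. Brown adipose had 4 of the 10 genes lower (Adgre1, Csf1r, Marco and Vsig4), where 10.7% of all genes were lower, and muscle had 4 (Adgre1, Mertk, Vsig4 and Cd5l) against 13.4%. Heart had 2 lower (Vsig4 and Spic) against 7.97%, kidney 2 (Adgre1 and Vsig4) against 8.99%, liver 1 (Vsig4) against 19.6%, lung 1 (Spic) against 3.52% and white adipose 0 against 3.31%. A peak of fed brown adipose below the end of its list counts as 0 in these values.

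Taking the 5 tissues with the best known resident macrophages together (spleen, liver, lung and both adipose depots) did not separate these genes from muscle, heart and kidney. At promoters no gene had all 5 tissue means above the other 3, as 1.07% of all genes had. The largest differences were 38.5 points for Adgre1 and 30.2 for Marco (exact permutation over the 56 choices of 3 tissues, two-sided p = 0.143 and 0.357, adjusted p = 1 for both). Over the locus, Cd5l was the only gene with the 5 tissues apart (51.8 points, exact permutation p = 0.0357, the smallest the design allows, adjusted p = 1), against 1.28% of all genes, and there the adipose and liver values came from Fcrl1. Kidney and heart kept Csf1r at 79.8 to 91.6 and 52.9 to 84.3 over the promoter and locus values, within the range of the 5 tissues.

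The 10 genes held 193 elements of 627603 in all, from 4 at Vsig4 to 60 at Mertk, and 83 of them were listed in a lone library. Only 5 were listed in all 16 libraries, 3 at Cd68 and 2 at Mertk. Of 110 with a peak in at least 2 libraries, 74 were higher in at least 1 tissue, where 68.2% of all 345759 elements were. Spleen had 35 of the 110, with 17.0% of all elements higher there, and these were at 9 of the 10 genes (9 at Cd5l, 6 each at Adgre1 and Csf1r, 3 each at Marco, Spic and Vsig4, 2 each at Cd68 and Mertk, 1 at Clec4f and 0 at Timd4). Of the 9 counted at Cd5l, 3 lie at or in the adjacent Fcrl1, and 1 of the 2 at Cd68 lies in Mpdu1. The 3 at Vsig4 lie beyond its 3' end, nearer to F630028O10Rik or Mir223 than to the Vsig4 start. An element that other tissues list in fewer than 2 libraries was tested only through spleen, and its direction was set by that filter. Of the 80 elements with a peak in at least 2 libraries of other tissues, 20 were higher in spleen, with 11.7% of all elements under that filter, and they were at the same 9 genes (2 of the 5 at Cd5l lie at or in Fcrl1). That filter was chosen after seeing the data. Kidney had 23, against 15.8%, and they were at 3 genes (13 at Mertk, 8 at Csf1r and 2 at Timd4). Under the corresponding filter 12 of 97 were higher in kidney, with 9.45% of all elements, 6 at Mertk, 5 at Csf1r and 1 at Timd4. White adipose had 11 (8.25% of all elements), lung 7 (11.1%), liver 6 (13.1%), brown adipose 6 (10.6%), muscle 4 (12.5%) and heart 4 (8.13%).

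**Figure D4:**
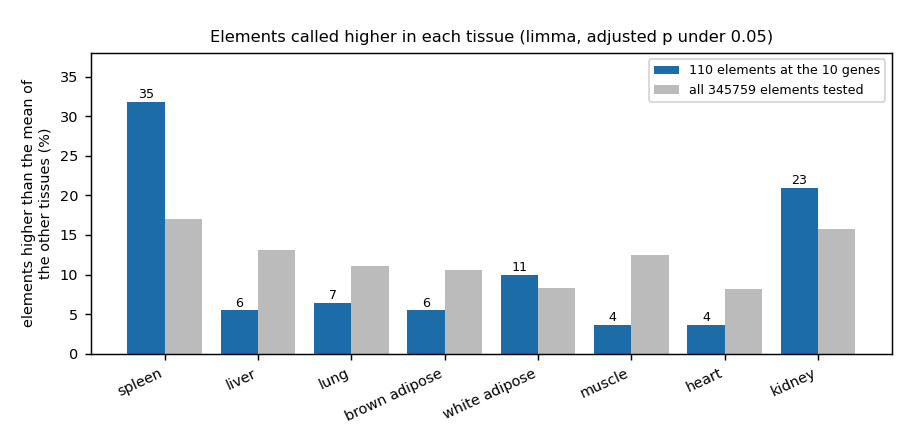
Share of elements called higher in each tissue than in the mean of the other tissues, in percent, for the 110 tested elements near the 10 genes (dark bars, with the number of elements above) and for all 345759 tested elements (grey bars). The dark bar is above the grey one in spleen, white adipose and kidney and below it in the other 5 tissues, and 15 of the 35 spleen and 11 of the 23 kidney elements were tested only through that tissue.

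An element listed in both libraries of a tissue and nowhere else enters the test through that tissue only. Such elements are among the counts above, and their number is given next as a description. Near the 10 genes there were 9 in spleen, 2 each at Adgre1, Csf1r, Vsig4 and Cd5l and 1 at Marco, where 2.42% of all elements were of this kind. Kidney had 6 (3 at Mertk, 2 at Timd4 and 1 at Csf1r), against 2.90%. Liver, lung, brown adipose and muscle had 1 each, at Clec4f, Mertk, Cd5l and Spic, where 1.60%, 1.25%, 0.764% and 1.77% of all elements were of this kind.

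The PU.1 letters GAGGAAGT, searched on both strands in the 300 bases around each summit, were found in 3.37% of all 345759 elements, in 8.09% of the 58904 that were higher in spleen and in 2.0% of the 45372 higher in liver. Near the 10 genes they were found in 13 of 110 elements, in 7 of the 35 that were higher in spleen and in 6 of the other 75. Those 7 lie at Adgre1 (2), Csf1r (2), Marco (1), Cd5l (1) and, within the extended Cd5l locus, 12 bp from the Fcrl1 start (1). Neither Vsig4 nor Spic nor Clec4f had a match, so the elements printed above include spleen elements with the letters and without them. A match is a run of letters and no measure of binding.

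Other genes of macrophages and of the cells they share the tissue with give the context for the spleen values, all at promoters and by the same test, and their counts are to be read against the shares of all genes given above (14.4% higher and 17.3% lower in spleen). Among 14 regulators of macrophage identity, 4 were higher in spleen, led by Spi1, which encodes PU.1 (95.4 and 96.0 against a mean of 63.7, 31.9 ± 4.12 points, adjusted p = 0.000935), and by Maf (7.11 ± 2.21 points, adjusted p = 0.0420), and 4 were lower. The mean rank of this list in spleen, 85.8 to 87.6, was within the 78.5 to 93.0 of the other libraries, whose highest values, 90.8 and 93.0, were those of muscle. Spi1 was higher in muscle too (96.4 and 95.0, 32.0 ± 4.12 points, adjusted p = 0.0018), in lung and in white adipose. Of 8 genes of the CSF1 and CSF2 pathway, 4 were higher in spleen, among them the receptor genes Csf3r (54.6 ± 17.0 points, adjusted p = 0.0428) and Csf2rb (52.0 ± 10.5 points, adjusted p = 0.00753), and none lower. Il34, which encodes the second ligand of the CSF1 receptor, was higher in kidney (95.8 and 97.2, 26.6 ± 6.78 points, adjusted p = 0.0300). Of 14 further broad macrophage markers, 6 were higher in spleen and 2 lower, with Itgam, an integrin chain of myeloid cells, at 60.8 ± 8.68 points (adjusted p = 0.00152) and Fcgr1, a receptor for IgG, at 53.8 ± 11.8 points (adjusted p = 0.0109). Trem2, a lipid-sensing receptor, was higher in brown adipose (94.9 and 93.1, 67.9 ± 13.4 points, adjusted p = 0.0131), and C1qa, a complement gene, in heart (72.7 and 65.6, 62.5 ± 8.68 points, adjusted p = 0.00338). Of these 14 markers 2 were higher and 2 lower in brown adipose, and 3 were higher and 0 lower in heart. C1qa, C1qb, Cx3cr1, Fcgr1, Itgam, Lyve1 and Lyz2 had no promoter peak in either brown adipose library. C1qa and Lyve1 had none in either spleen library.

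Lists for the macrophages of single organs did not all peak in that organ. Of 8 Kupffer cell markers outside the 10 genes, 3 were higher in liver and none lower, among them C6, a complement gene that hepatocytes also express (58.2 ± 9.65 points, adjusted p = 0.0027), and Il18bp (20.7 ± 4.96 points, adjusted p = 0.0135), and the mean rank of the list was 72.9 to 73.2 in liver and 50.9 to 70.9 in the other libraries. Cd207 of this list had no promoter peak in either liver library. In spleen 4 of the 8 were lower and 2 higher by limma, Clec1b (49.8 ± 7.57 points, adjusted p = 0.00202) and Cd38 (19.3 ± 4.51 points, adjusted p = 0.0142). Of 7 red pulp macrophage markers, 3 were higher in spleen and 2 lower, with Siglec1, a sialic acid receptor, at 41.6 ± 10.97 points (adjusted p = 0.0230) and Treml4 at 36.6 ± 8.55 points (adjusted p = 0.0141). In liver 3 of the 7 were higher and 1 lower. Siglec1 was higher in white adipose too (88.9 and 75.3, 65.01 points, adjusted p = 0.0110), with 64.8 and 58.4 in spleen. Of 8 alveolar macrophage markers none was higher in lung and 1 was lower by limma, and their mean rank in lung, 45.6 to 48.5, was within the 28.1 to 71.0 of the others. Of 8 peritoneal and adipose macrophage markers, 1 was higher and 1 lower in white adipose, and 2 were higher and 2 lower in brown adipose. In lung and in heart 2 each were higher and 0 lower, and the mean rank of the list was highest in lung.

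Spleen also holds many lymphocytes and granulocytes, and their markers moved with it. Of 5 B cell markers 4 were higher in spleen, of 5 T cell markers 4 (mean rank 80.0 to 82.7 in spleen against 0.930 to 77.6 elsewhere), and of 8 monocyte and neutrophil markers 5 (46.0 to 71.4 against 9.48 to 39.8), with Ccr2 at 71.1 ± 8.96 points (adjusted p = 0.000831). None of these markers was at 0 in both spleen libraries. In lung, where Adgre1 and Vsig4 were higher over the locus, 3 B cell markers and 1 T cell marker were higher and none lower. Of the monocyte and neutrophil markers, 2 were higher and 1 lower there, and Ly6g, S100a8 and S100a9 had no promoter peak in either lung library. The part of these cells in the spleen and lung results was not tested.

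Fasting was compared with feeding across the 8 tissues, with 1 library of each state in each. None of the 10 genes passed the test at the promoter or over the locus. By limma, 0 of all genes tested passed at the promoter (0%, lowest adjusted p = 0.858), 0 over the locus (0%, lowest adjusted p = 0.606), and 0 elements (0%, lowest adjusted p = 0.733). At an unadjusted p under 0.05 limma gave 824 genes at promoters (4.36%), 986 over the locus (4.86%) and 8150 elements (2.36%), and none of the 10 genes was among them. An exact sign-flip permutation test over the 8 tissues also passed 0 genes after adjustment and 1036 and 1140 before it, again without the 10 genes (smallest possible p = 0.0078125). The largest mean difference at a promoter was that of Cd68, at 16.2 points higher in fasting (higher in 5 tissues, lower in 2, exact sign-flip permutation p = 0.0781, adjusted p = 0.893), and over the locus that of Clec4f, at -13.1 points (lower in 5 tissues, higher in 0, exact permutation p = 0.0625, adjusted p = 0.827). Outside spleen and fed lung the Cd68 promoter value rests on a peak nearest to the start of Mir1934.

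Within a tissue each state is a lone library, and the differences below have no replicate check. At promoters, 11 of 72 gene and tissue pairs were at least 20 points higher in fasting and 5 were at least 20 points lower, where 3.52% and 4.64% of all pairs were. White adipose had 3 of the 11 (Adgre1 from 39.0 to 72.6, Cd68 from 31.4 to 75.1 and Cd5l from 8.89 to 32.2) and heart 3 (Adgre1 from 0 to 32.1, Csf1r from 52.9 to 84.3 and Cd68 from 40.8 to 75.4). Liver had Cd68 and Spic, muscle Cd68, brown adipose Cd5l and spleen Timd4. In white adipose, heart, liver and muscle the strongest Cd68 promoter peak lay nearest to the start of Mir1934 and not at the Cd68 start. The 5 lower pairs were Marco in white adipose, which went from 82.3 to 0, Clec4f in spleen (62.3 to 2.95), Adgre1 and Timd4 in liver and Cd5l in heart. Over the locus 7 of 80 pairs were higher and 7 lower by that margin, against 2.66% and 3.68% of all pairs. When ranks were taken among promoter peaks alone, 0 pairs were at least 20 points higher and 1 lower at promoters, on a scale that differs from the one above. Background tags differed between the states in white adipose (10.02 fed, 5.87 fasting) and brown adipose (12.8 and 6.76), and the weakest listed -log10 q of white adipose was 4.22 fed and 1.48 fasting. Peaks near the end of a list can thus be listed in 1 state and missing in the other, and the part of depth in these pairs was not tested. Lung and kidney had no pair past 20 points at promoters in either direction.

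**Figure D5:**
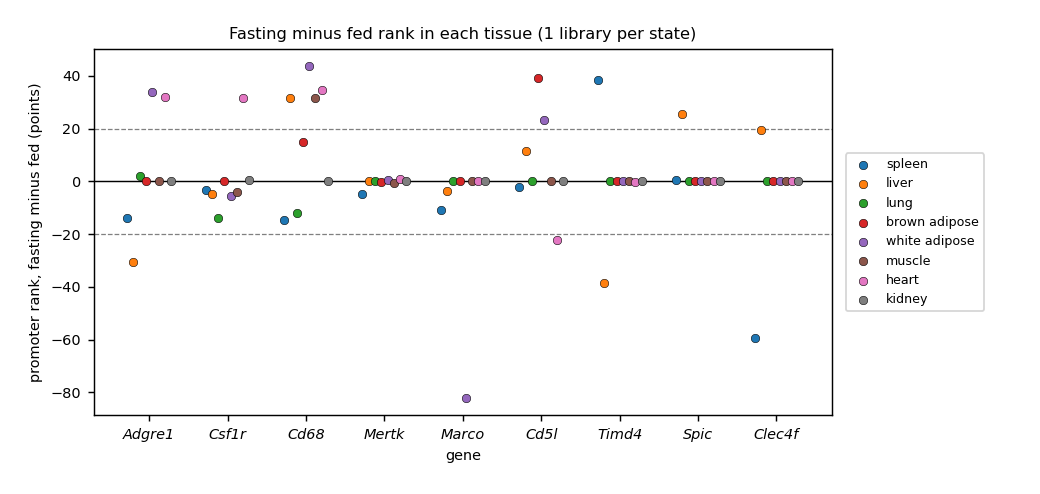
Promoter rank in fasting minus fed, in points, for the 9 genes with a promoter peak in at least 2 libraries, with 1 point per tissue and dashed lines at 20 points in each direction. Of the 72 points, 11 lie at or above the upper line and 5 at or below the lower one, and the lowest is Marco in white adipose.

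The genes whose promoter rank most resembled each of the 10 were sought by Pearson correlation over the 16 libraries, leaving out genes within 100 kb. These are descriptions over libraries that share mice and tissues in pairs. For Adgre1 they were Tnfsf8 (r = 0.91), Naip2 (0.90) and Olfr374 (0.89), each with its highest mean rank in spleen (92.4 to 95.1). For Csf1r they were Ctsh, Fgd3 and Arsg (0.91 to 0.92), for Cd5l 9830107B12Rik, Hs3st2 and Fsip2 (0.91 to 0.95), and for Marco Abo, Ceacam10 and Il10 (0.92 to 0.93), most of them highest in spleen and Ctsh in liver. Mertk was most like Mcf2l, Fam84a and Tnfaip8l3 (0.96 to 0.98), highest in kidney, white adipose and liver, and Cd68 like Pdcd1lg2, Dnah17 and Large2 (0.82 to 0.89). The values of Timd4, Clec4f and Spic, with 3 libraries above 0 each, rest on so few peaks that genes with peaks in the same few libraries came first (r of 0.98 to 1.0), for Spic Nox1, Hrh4 and Cyp21a1.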

How the data were processed

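ATAC-seq peak lists of 16 pooled libraries were analysed. Per the submitters' processing notes and the study's methods, the authors aligned reads to GRCm38 with Bowtie2 and called peaks in each library with MACS2. The deposited fold enrichment is a ratio of tags at the summit to expected tags, and the deposited -log10 p and -log10 q are from the authors' test within each library. None is scaled between libraries, so the -log10 p-value was turned into a percentile within each deposited list. Tags were solved from fold and p. Read counts were not used here.

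Starts were those of GENCODE vM21. Genes with a peak in at least 2 libraries entered limma 3.58.1 (R 4.3.3) on ranks, with terms for tissue and state and Benjamini-Hochberg adjustment over all features at 0.05. Tissues were compared 5 against 3 and states across 8 tissues by exact permutation. The window, merging, sign-flip, tag and limma steps were tested on simulated data, and the other steps were not.

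The 10 genes, lists, tests and rules were chosen with earlier results of these data known. All 10 genes are named. Other names follow a rule: up to 3 elements per gene with the smallest adjusted p, up to 2 genes per list and tissue with the largest called difference, and the 3 most similar genes. Further elements were named after their values were seen. Alternatives changed the window, ranking, filters, starts, list length and covariates, and left out tissues. The number of value columns from samples outside the series was 0.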

Additional observations from a re-analysis of the deposited data

How the results depend on the processing

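The 6 higher promoter calls became 3 with only the 100000 strongest rows of each list, and 5 to 9 in the other 11 alternatives. The 13 higher locus calls became 8 with the gene body without extension, and 9 to 14 otherwise. Of elements, 32 of 37 tested were higher in a tissue with the strongest rows only and 44 of 57 with a peak required in at least 4 libraries, against 74 of 110, and 71 to 96 otherwise. With a peak required in at least 2 libraries of tissues other than the one compared, an alternative chosen after seeing the data, 43 remained higher. In the main setting 68.2% of all elements were higher in at least 1 tissue. The share of all genes or elements called was not computed for the counts under the alternatives. They show only how many calls stayed. Fasting gave 0 of the 10 genes at promoters in 17 alternatives and over the locus in 14. The comparison of 5 with 3 tissues gave 0 of the 10 genes at promoters, and 0 to 1 when a tissue was left out: 1 without lung (Cd5l) and 1 without brown adipose (Adgre1).

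The call of Cd68 in brown adipose turned to -15.6 points with a window of 1000 bp (limma, adjusted p = 0.112) and with each peak given to its nearest start alone (-15.6, adjusted p = 0.111), so it came from peaks nearer to other starts. Over the locus, Mertk in muscle turned to 0.11 points when fold was ranked and to 6.36 in the gene body alone, Spic in muscle to -10.3 in the gene body alone, and Vsig4 in lung to -10.6 with the strongest rows only (adjusted p = 0.00172). Counted over named values and alternatives, 322 values were counted as unchanged, 49 kept only the direction, 10 moved and the 6 above turned. Most of the 322 were tissue calls that kept their direction and side of the threshold. The rest of the 322, and the 10 that moved, were not such calls. Calls that could not be tested under an alternative, such as 7 over the locus in the gene body alone, are in none of these counts.

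The fed and fasting libraries of a tissue were paired by tissue in every test of fasting, and no further block was possible because the labels give no replicate numbers. Limits: 1 pool per tissue and state leaves differences between mice unmeasured, ranks of weak peaks rest on as few as 9 tags in the shallow spleen and liver libraries, and the end of each list sets which weak peaks are seen.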

Other observations

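Lists of other cell types were read at the same promoters. Of 5 endothelial markers 3 were higher in spleen and 1 lower, with a mean rank of 67.4 to 68.4 there against 33.8 to 78.0 elsewhere, and of 5 erythroid markers none was higher or lower in spleen by limma, where their mean rank was 53.9 to 54.8. In their own tissue 2 of 5 skeletal muscle markers were higher (mean rank 92.4 to 93.7), 4 of 5 brown adipose markers (91.3 to 92.1), 3 of 5 adipocyte markers in white adipose (87.8 to 91.2) and 4 in brown adipose, 3 of 5 cardiomyocyte markers (74.1 to 81.4), 3 of 5 lung epithelial markers (76.8 to 82.3) and 2 of 5 kidney tubule markers (78.0 to 81.9).

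Other motifs were searched in the 300 bases around each summit, on both strands. TGACTCA, an AP-1 sequence, was found in 6 of the 110 elements near the 10 genes and in 7.66% of all elements, and TGCTGAC, a part of the MAF site, in 6 and in 6.64%. The IRF sequence, GAAA and again GAAA with any pair of bases between them, was found in 7 and in 3.58%, and TTGCNNAA, a C/EBP sequence, in 22 and in 13.9%. Of the 35 elements that were higher in spleen, 1, 3, 4 and 8 held these letters in that order.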
